A study of Mus musculus with 9 samples.

Results

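The clustered protocadherins are the *Pcdha*, *Pcdhb* and *Pcdhg* genes, which lie in 3 arrays one after the other on mouse chromosome 18, at chr18:37089939-38001527 of mm9, a stretch of 912 kb. Of the 58 genes listed for this family, 41 have a first exon in the annotation of that build and were measured as members: 8 alpha, 22 beta, 6 gamma A and B, and the 5 C-type genes *Pcdhac1*, *Pcdhac2*, *Pcdhgc3*, *Pcdhgc4* and *Pcdhgc5*. They are 41 of 14295 protein-coding genes in the part of the genome that could be compared. The other 17 listed genes are alpha and gamma genes that this annotation lacks. They were placed by their long open reading frames and are described apart from the 41.

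Protocadherins are cadherin-related adhesion proteins of the neuronal surface. A neuron uses a small set of the clustered members, and binding between like sets lets its branches tell themselves from those of other neurons. Each alpha and gamma gene consists of a variable first exon with a promoter of its own, which codes for the extracellular, transmembrane and first cytoplasmic part and is spliced to constant exons shared by the array, whereas a beta gene is a single exon. The promoters compete for a distant enhancer through loops made by CTCF and cohesin, and DNA methylation of a promoter is known to go with its silence. DNMT3A and DNMT3B are the de novo methyltransferases that place new CpG methylation, and DNMT3B in particular is known for its role at these promoters in the embryo.

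Whole genome bisulfite sequencing (WGBS) measured CpG methylation in J1 mouse embryonic stem cells (ESCs), a line of strain 129S4/SvJae, grown in serum and LIF on gelatin. The genotypes were wild type (WT), *Dnmt3a* KO (Dnmt3a-/-) and *Dnmt3b* KO (Dnmt3b-/-), with 3 libraries each that the authors merged into 1 table per genotype. Each value below is therefore 1 pooled value without replicate error, no test across replicates was possible, and the WT reads were shared by both comparisons. The KO cells are established lines, so that clone and genotype cannot be told apart. ESCs are not neurons, and expression of the genes was not measured here.

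Over the shared part of the tables the median depth was 22 reads per CpG in WT, 20 in *Dnmt3a* KO ESCs and 21 in *Dnmt3b* KO ESCs. In *Dnmt3a* KO ESCs 12 consecutive CpGs of *Dnmt3a* had no read where WT had a mean of 31.4 reads, and in *Dnmt3b* KO ESCs 30 consecutive CpGs of *Dnmt3b* had none where WT had 31.5. Each KO table thus had a stretch without reads in the gene named by its label. Promoters of the ESC genes *Pou5f1*, *Sox2*, *Klf4* and *Lin28a* were under 10% methylated in WT, while that of *Esrrb*, at the start of its longest transcript, was at 94.4%. The mean depth was 35, 32.2 and 31.6 reads in the same order. Members had mean depths below this mean but above the median in each genotype. These were 24.7, 22.3 and 24.7 reads per CpG at their promoters and 25.8, 22.8 and 24.9 in their first exons in WT ESCs and in the *Dnmt3a* and *Dnmt3b* KOs. At least 3 reads in every genotype were present at 1115 of the 1126 reference CpGs of the promoters and at 3670 of the 3727 of the first exons.

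The first question was how methylated the members were in WT. A promoter was taken as the 500 bp on both sides of the annotated start, and its level as the mean of the methylation ratios of its CpGs. Member promoters had intermediate levels, with a median of 35.9% and a range from 1.34% to 68.2%, beside a median of 6.45% over all 13265 promoters with at least 5 CpGs. Of the members, 9 of 41 (22%) were under 10%, against 55.4% of all promoters. At 50% or more were 13 of 41 members and 4353 of all 13265 promoters, which are similar shares. First exons were higher, with a median of 54.9% and a range from 18.1% to 81.3%, but this was below the median of 91.3% over the longest coding exons of all genes. These features are unlike. Member first exons overlap their promoter windows, whereas the longest coding exon of another gene can lie anywhere in it. The median number of measured CpGs was 81 in members and 16 over all. This limit holds for every share of first exons over all genes given below. An intermediate level in pooled reads can come from a mixture of cells or of alleles, which cannot be told apart here. It can also come from CpGs that differ in level, and the SD over the CpGs of a member in WT ran from 4.04 to 43.4 points at promoters (median 28.8) and from 18.5 to 42.8 points in first exons (median 32.4), sampling of reads included. Pooled over the 41 members in WT, 63.4% of promoter CpGs were under 20%, 26.3% lay between 20% and 80% and 10.3% were above 80%, and in first exons the shares were 28.4%, 41.5% and 30.1%.

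**Figure D1:**
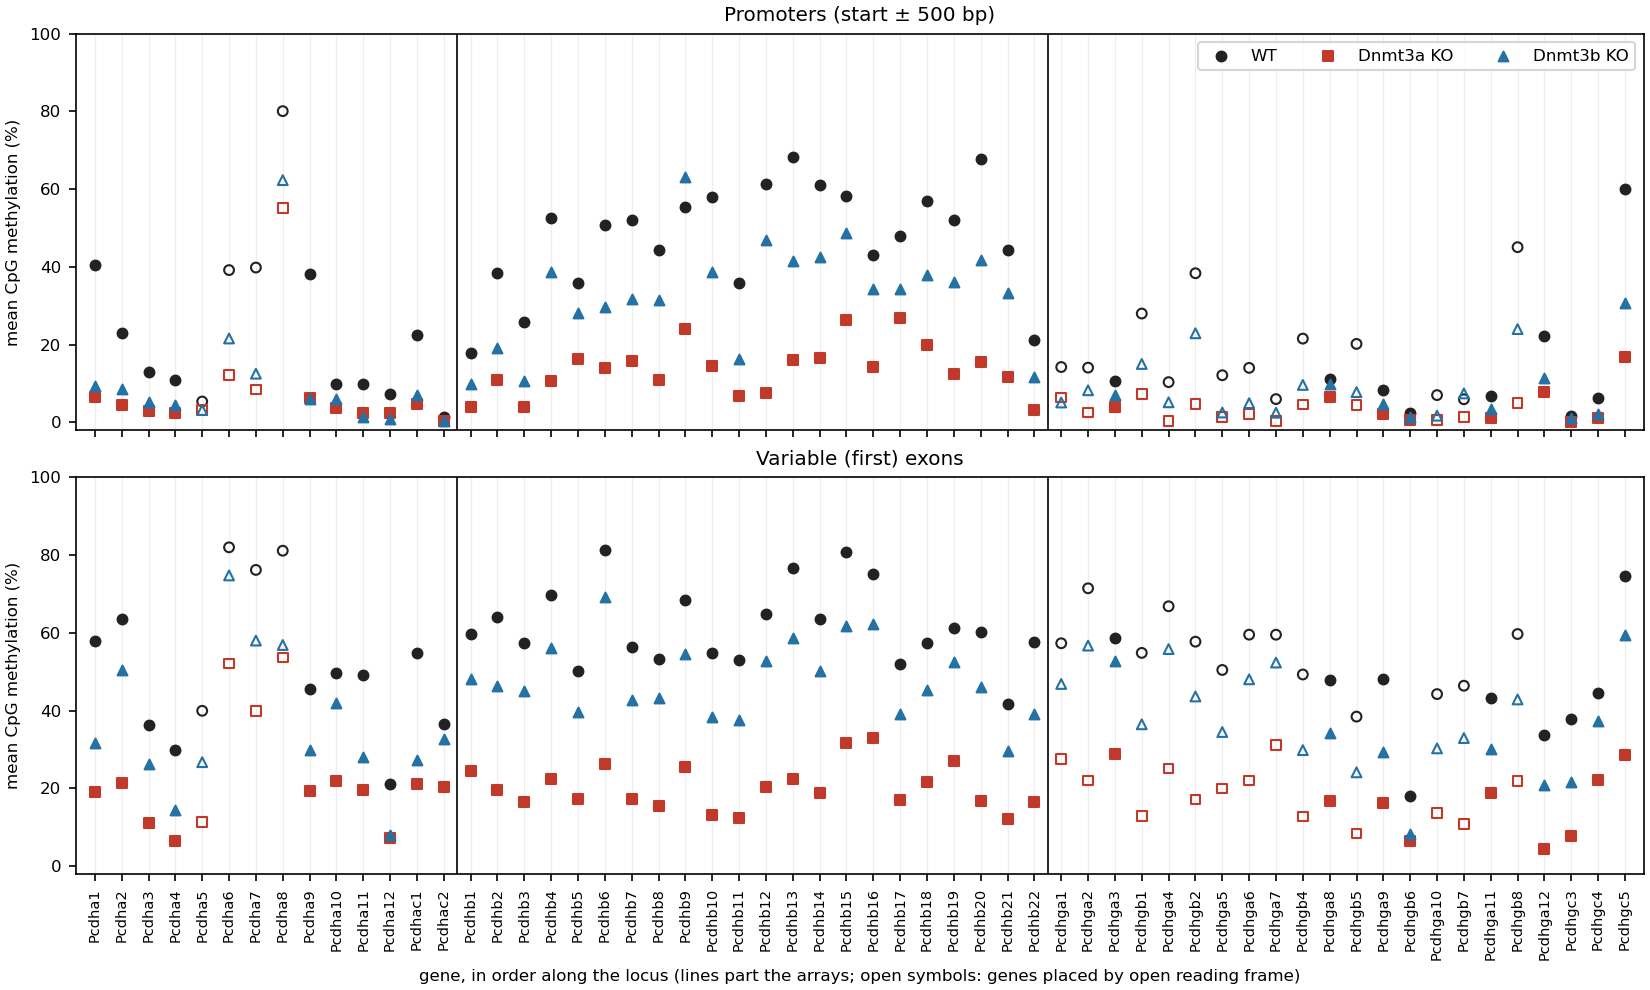
Mean CpG methylation (%) of each clustered protocadherin gene in WT (black circles), *Dnmt3a* KO (red squares) and *Dnmt3b* KO ESCs (blue triangles), for promoters above and first exons below, in order along the locus; open symbols mark the 17 genes placed by open reading frame. Beta promoters stood between 18% and 68.2% in WT, while the annotated gamma A and B promoters reached 22.2%, and red squares lie under the black circles at every gene.

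The arrays differed in their WT levels. The 22 beta promoters had a median of 51.4% and none was under 10%, the 8 alpha promoters a median of 11.8% with a maximum of 40.5%, and the 6 gamma A and B promoters a median of 9.47% with a maximum of 22.2%. The 5 C-type promoters, which do not take part in promoter choice in the same way, held both extremes of the gamma array. *Pcdhac2* was at 1.34% ± 4.04 (SD over 83 CpGs), *Pcdhgc3* at 1.6% ± 4.43 (68 CpGs) and *Pcdhgc4* at 6.36% ± 11.8 (42 CpGs), while *Pcdhac1* was at 22.4% ± 27.5 (50 CpGs) and *Pcdhgc5* at 60% ± 28.8 (17 CpGs). Promoter CpG content varied in the opposite sense. Beta promoters had a median of 1.5 CpGs per 100 bp, alpha promoters 3.8, gamma A and B promoters 3.6 and C-type promoters 5, and over the 41 promoters the WT level and the CpG content gave Pearson's r = -0.74 and Spearman's rho = -0.75. Within the 22 beta promoters these were -0.43 and -0.30, which is a description of points that share libraries and array. Across the 41 members a higher promoter went with a higher first exon (r = 0.71, rho = 0.74, with some CpGs in both windows).

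Loss of *Dnmt3a* was examined next. Pooled over the CpGs of all 41 promoters, the level was 23.4% in WT, 6.24% in *Dnmt3a* KO ESCs and 13% in *Dnmt3b* KO ESCs, and in first exons it was 51%, 17.6% and 37.2%. In *Dnmt3a* KO ESCs 22 of 41 promoters (53.7%) were more than 20 percentage points below WT, where 34.4% of all promoters were. The count moves with the window: with the upstream 500 bp only it was 9 of the 32 with at least 5 CpGs, and no background was computed for that window. Among promoters at 50% or more in WT, 13 of 13 were lower by more than 20 points, where 93.4% of all such promoters passed. Of the first exons 38 of 41 were lower by more than 20 points, against 76.6% of the longest coding exons of all genes, and 26 of 26 among those at 50% or more in WT, against 90.8%. By any amount 41 of 41 promoters were lower than WT, as were 91% of all promoters, and 41 of 41 first exons, as were 96.6% of all. Among features at 50% or more in WT these shares were near those of all genes. A count in points depends on the WT level, so the fraction of the WT level that was kept was compared next.

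Among promoters with at least 20% methylation in WT, 26 of 27 members kept less than 50% of their WT level in *Dnmt3a* KO ESCs, against 42.1% of all 5111 such promoters, and the median fraction kept was 24.9% beside 54.7%. Among first exons 39 of 40 members did so, against 27.6% of all, with medians of 33.1% and 61.1%. Most genes of this background were near full methylation in WT, however. When promoters between 30% and 70% in WT were taken, 21 of 22 members kept less than 50%, and so did 89.9% of all 703 promoters of that range, with medians of 26.8% and 25.4% kept. For first exons of that range the counts were 32 of 33 members and 84.2% of 745, with medians of 32.7% and 29.6%. These medians lay close together, and the background includes the members. The lower ends differed more, since 4 of 22 member promoters (18.2%) of that range were under 10% in *Dnmt3a* KO ESCs beside 40.5% of all, and 2 of 33 first exons (6.06%) beside 31.3%.

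**Figure D2:**
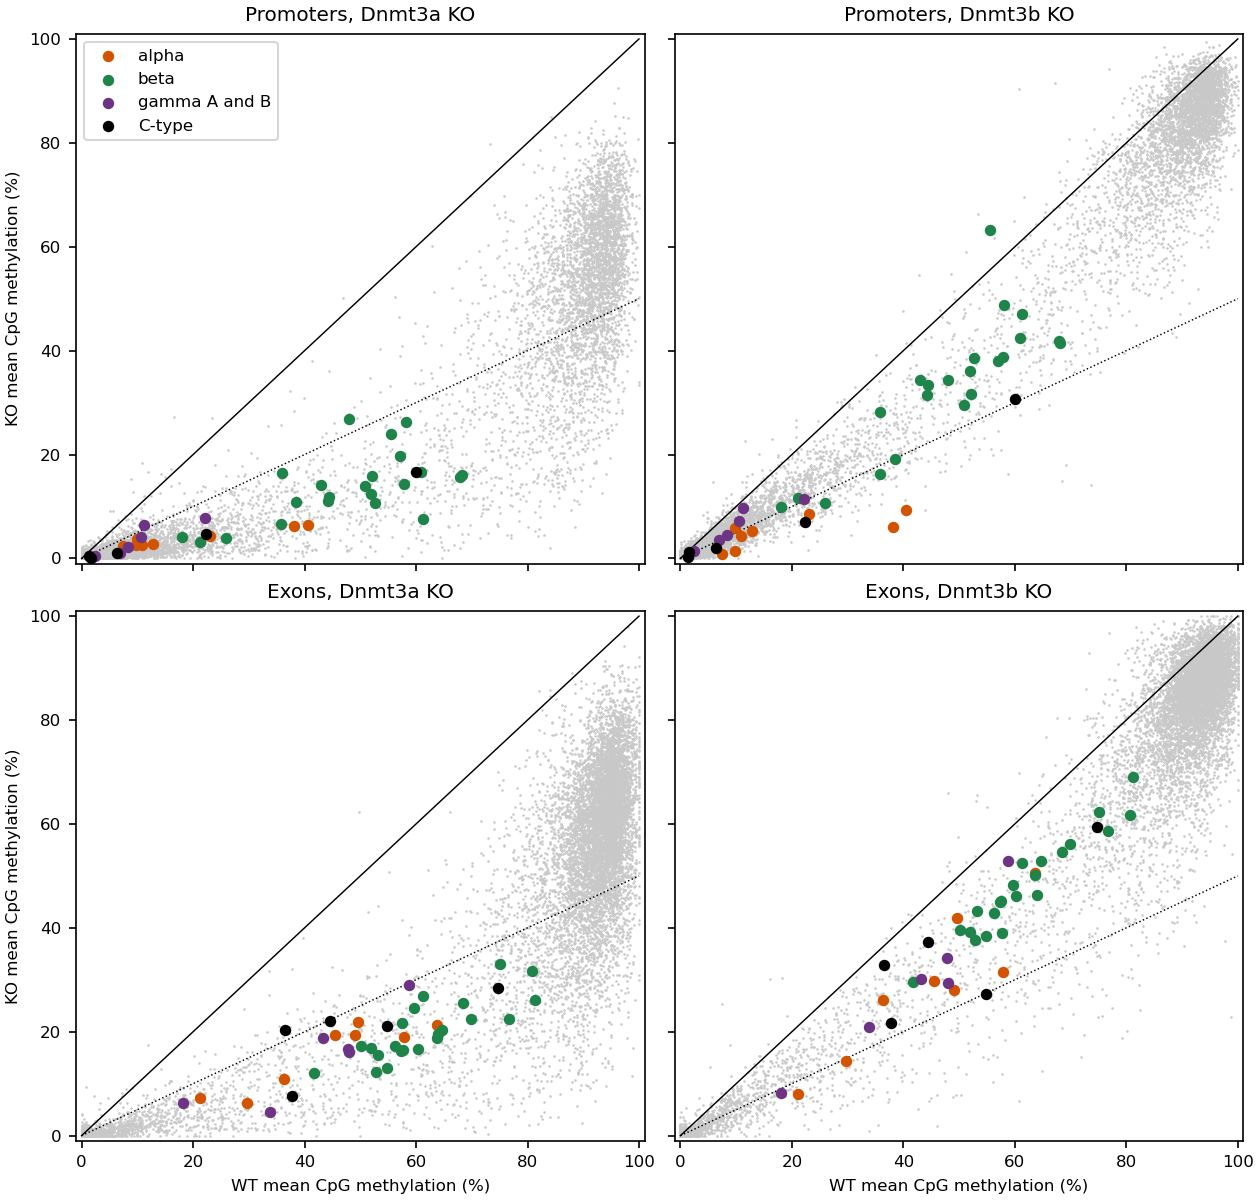
Mean CpG methylation (%) in the KO (vertical axis) against WT (horizontal axis) for promoters (top) and longest coding or first exons (bottom), in *Dnmt3a* KO (left) and *Dnmt3b* KO ESCs (right). Grey points are all other protein-coding genes, coloured points the 41 members by class, the full line equal levels and the dotted line 50% of WT; at top right *Pcdha1* and *Pcdha9*, at 40.5% and 38.1% in WT, lie below the dotted line.

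The comparison with *Dnmt3b* KO ESCs gave smaller differences in most members. By more than 20 points, 7 of 41 promoters (17.1%) were lower than WT, where 3.61% of all promoters were, and 5 of 13 among those at 50% or more in WT, where 9.6% were. Of the first exons 3 of 41 were lower by that much, against 9.24% of all, and 2 of 26 of those at 50% or more, against 10.4%. These counts move with the measure: by the share of methylated reads 12 promoters and 6 first exons were lower by more than 20 points, and without the first 500 bp 7 first exons were, so that the first exons cannot be placed below the background, which was not computed for these measures. Less than 50% of the WT level was kept by 7 of 27 promoters with at least 20% in WT, against 3.87%, and by 3 of 40 first exons, against 2.98%. In the range from 30% to 70% in WT this was 4 of 22 promoters beside 13.9% of all, and 1 of 33 first exons beside 20.8% of all. The members of that range kept a median of 68.1% at promoters and 76% in first exons, and all genes of that range 67.9% and 68.7%. Under 10% in *Dnmt3b* KO ESCs were 2 of 22 member promoters (9.09%) of that range beside 0.996% of all, and 0 of 33 first exons beside 3.09%. The pooled difference from WT was -10.4 points at promoters and -13.8 points in first exons.

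A direct comparison of the KOs showed more methylation in *Dnmt3b* KO than in *Dnmt3a* KO ESCs at 37 of 41 promoters, where 83.6% of all promoters were higher, and at 41 of 41 first exons, where 94.1% were. By more than 20 points it was higher at 12 promoters (29.3%), where 27% of all promoters were, and at 24 first exons (58.5%), where 60.6% of all were, so that the shares at more than 20 points did not stand apart from the background. The 12 promoters were all beta promoters, as were 21 of the 24 first exons.

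Alpha, gamma A and B, and C-type promoters, all lower than beta promoters in WT, showed a smaller difference between the KOs than beta promoters. Pooled over CpGs, the annotated alpha promoters were at 18.6% in WT, 3.83% in *Dnmt3a* KO ESCs and 5.15% in *Dnmt3b* KO ESCs, so that 20.6% and 27.7% of the WT level were kept. Beta promoters were at 45.6%, 12.9% and 30.3%, and kept 28.4% and 66.4%. Gamma A and B promoters kept 35.8% and 64.4%, of a WT level of 8.52%, and C-type promoters 22.7% and 40.6%, of 10.1%. Of the 200 gamma A and B promoter CpGs, the 16 from 500 to 250 bp before the start were at 56.9%, 28.6% and 44%. The 90 from 250 to 500 bp after the start were at 5.47%, 1.01% and 2.54%. The fractions kept by gamma A and B promoters thus lean on few CpGs at the edge of the window. The difference between the KOs was 1.44 points of the read share at alpha promoters (95% interval 0.736 to 2.14) and 19 points at beta promoters (17.8 to 20.2). Gamma A and B promoters differed by 1.72 points (0.927 to 2.51) and C-type promoters by 2.05 points (1.27 to 2.82). At the 4 alpha promoters placed by open reading frame the difference was 4.13 points (2.35 to 5.9), but these kept more of the WT level than the annotated alpha promoters, 49% in *Dnmt3a* KO ESCs and 61.5% in *Dnmt3b* KO ESCs. Among promoters with at least 20% in WT, less than 50% was kept in *Dnmt3b* KO ESCs by 3 of 3 annotated alpha promoters, 3 of 21 beta, 0 of 1 gamma A and B and 1 of 2 C-type promoters, and by 1 of 3 alpha and 2 of 5 gamma promoters placed by open reading frame. Over all promoters the share was 3.87% at 20% or more in WT and 13.9% between 30% and 70%. First exons of the annotated alpha genes kept 35.4% in *Dnmt3a* KO ESCs and 64.4% in *Dnmt3b* KO ESCs.

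*Pcdha1* (first exon at chr18:37089939-37092326) had the highest promoter of the annotated alpha array, with 40.5% ± 20.3 (SD over 39 CpGs) in WT, 6.42% ± 9.37 in *Dnmt3a* KO ESCs and 9.35% ± 10.5 in *Dnmt3b* KO ESCs. *Pcdha9* (chr18:37157534-37160014) stood at 38.1% ± 18.5, 6.32% ± 7.89 and 6.06% ± 8.93 over 31 CpGs, the largest difference in *Dnmt3b* KO ESCs of that array. Read shares in *Dnmt3b* KO ESCs were 28.5 points below WT at *Pcdha1* (95% interval -32.1 to -24.9) and 30.6 points below at *Pcdha9* (-34.1 to -26.9), and between the KOs those of *Pcdha9* differed by 0.565 points (-1.92 to 3.14). *Pcdha2* had the most methylated first exon of the annotated alpha genes (63.7% in WT, 21.4% in *Dnmt3a* KO, 50.5% in *Dnmt3b* KO) and *Pcdha12* the least (21.2%, 7.18% and 7.98%).

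Alpha exons resemble one another, which bears on the placing of reads. Of the 50-base stretches of a member's promoter window, after conversion of all cytosines, a median of 22.1% recurred elsewhere in the locus in alpha genes, and 0% in beta and C-type genes. In beta first exons the median was 10.3%, with a maximum of 23.1%. When all CpGs inside such stretches were left out, 130 of 299 CpGs remained in alpha promoters, at 19.5% in WT, 4.89% in *Dnmt3a* KO ESCs and 6.42% in *Dnmt3b* KO ESCs, and *Pcdha1* and *Pcdha9* kept 25.4% and 19% of WT in *Dnmt3b* KO ESCs. Beta promoters kept 64.6% over the 327 CpGs left of 356. Beta first exons were at 70.3%, 26.8% and 56.2% over the 931 CpGs left of 1618, higher in all 3 genotypes, but the CpGs left also lay elsewhere in the exon. From 1500 to 2250 bp after the start 202 of 750 CpGs were left, and from 500 to 1500 bp 340 of 435. Within these segments WT changed less, from 44.7% to 48.6% and from 85.7% to 87.4%. The 4 alpha promoters placed by open reading frame were then at 52.7% in WT, 25.6% in *Dnmt3a* KO ESCs and 36.6% in *Dnmt3b* KO ESCs over 59 CpGs. They kept 48.6% and 69.5% of WT. With all CpGs they were at 42.1%, 20.6% and 25.9%, so that the KOs lay further apart without these stretches.

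Beta promoters ranged from 18% to 68.2% in WT, a wider span than that of the 8 annotated alpha or the 6 annotated gamma A and B promoters. It was narrower than that of the 5 C-type promoters (1.34% to 60%) and of the 4 alpha promoters placed by open reading frame (5.35% to 80.1%). *Pcdhb13* (chr18:37602171-37605863) had the highest, at 68.2% ± 28.2 in WT, 16% ± 20.6 in *Dnmt3a* KO ESCs and 41.6% ± 30.8 in *Dnmt3b* KO ESCs (24 CpGs), which was also the largest difference in *Dnmt3b* KO ESCs. The largest difference in *Dnmt3a* KO ESCs was at *Pcdhb12* (chr18:37595275-37598308), with 61.3% ± 32.3, 7.65% ± 9.1 and 47% ± 29.9 over 14 CpGs. *Pcdhb1*, which stands apart at the 5′ end of the array, had the lowest level, at 18%, 4.04% and 9.96%. *Pcdhb9* was the only one of the 41 promoters with a higher mean in *Dnmt3b* KO ESCs than in WT, at 63.2% against 55.5%, but it has 5 measured CpGs and its read share was 14.6 points lower (95% interval -26.4 to -1.92), so that its direction depends on the weight of the CpGs. In first exons *Pcdhb6* (chr18:37493682-37496000) was highest, at 81.3% ± 20.9, 26.2% ± 24.2 and 69.1% ± 21.5 over 51 CpGs, and had the largest difference in *Dnmt3a* KO ESCs. *Pcdhb21* was lowest, at 41.7%, 12.1% and 29.5%. In *Dnmt3b* KO ESCs the difference ran from -19 points at *Pcdhb15* (80.7% in WT, 61.8% in the KO) to -8.76 points at *Pcdhb19* (61.3% and 52.5%). All 22 beta first exons were between 29.6 and 55.1 points lower in *Dnmt3a* KO ESCs, and the range of both other arrays overlapped with theirs.

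**Figure D3:**
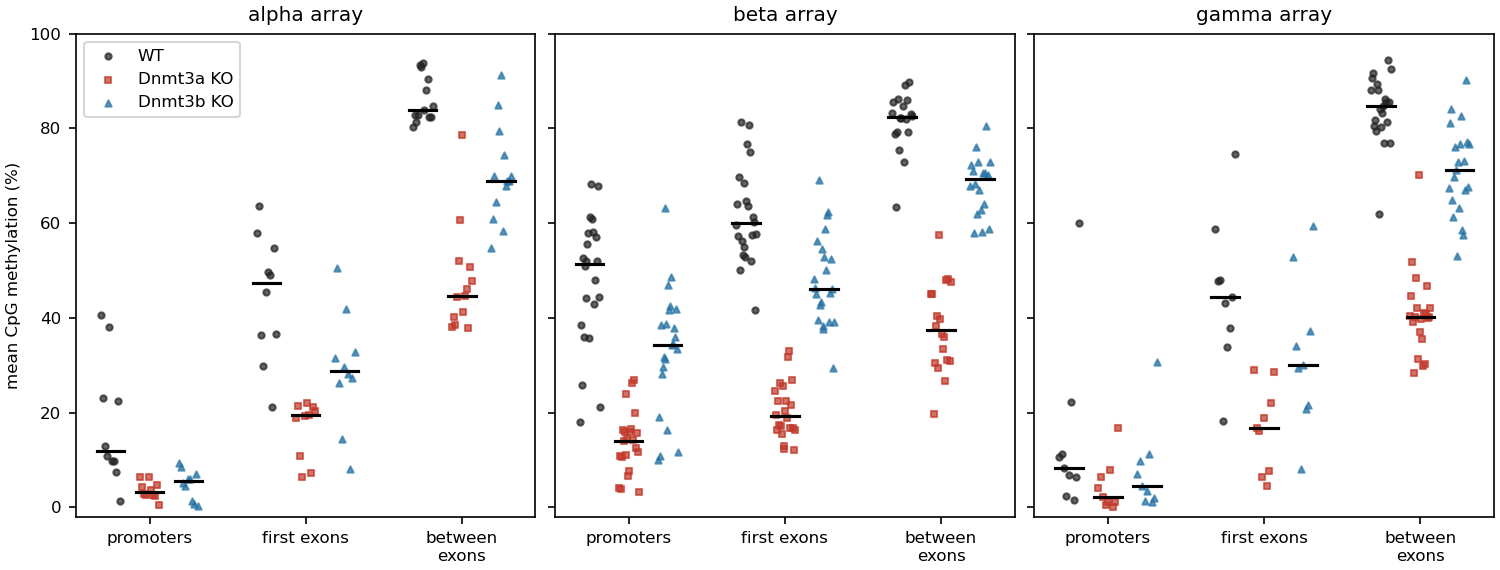
Mean CpG methylation (%) of promoters, first exons and the sequence between exons in the alpha, beta and gamma arrays (C-type genes within their array), each point 1 gene or 1 interval with at least 5 CpGs and each bar the median, for WT (black), *Dnmt3a* KO (red) and *Dnmt3b* KO ESCs (blue). The sequence between exons had WT medians from 82.4% to 84.8% in the 3 arrays, while the promoters of the arrays differed.

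In the gamma array the lowest and highest promoters were C-type. *Pcdhgc5* (chr18:37979200-37981788), the last variable exon, was at 60% in WT, 16.7% ± 14.6 in *Dnmt3a* KO ESCs and 30.6% ± 27.7 in *Dnmt3b* KO ESCs, and its first exon at 74.7%, 28.5% and 59.3%. *Pcdhgc3* was at 0% in *Dnmt3a* KO ESCs and 1.16% in *Dnmt3b* KO ESCs, and *Pcdhgc4* at 1.08% and 2.06%. In the alpha array, *Pcdhac1* went from 22.4% to 4.67% and 7%, and *Pcdhac2* from 1.34% to 0.404% and 0.356%. The first exons of these low promoters were nonetheless partly methylated, at 37.8% in *Pcdhgc3*, 44.5% in *Pcdhgc4* and 36.6% in *Pcdhac2* in WT. The first exon of *Pcdhac1* had the largest difference in *Dnmt3b* KO ESCs of the alpha array, at 54.8% in WT, 21.2% in *Dnmt3a* KO ESCs and 27.2% in *Dnmt3b* KO ESCs, and that of *Pcdhac2* the smallest, at 36.6%, 20.4% and 32.8%. Among gamma A and B genes *Pcdhgb6* had the lowest first exon (18.1%, 6.3% and 8.14%). In *Dnmt3b* KO ESCs the gamma first exons differed from WT by between -5.92 points at *Pcdhga3* (58.7% and 52.8%) and -18.6 points at *Pcdhga9* (48% and 29.4%).

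Methylation was then followed along the genes in bins of 250 bp. In all classes WT levels dropped to a trough at the start, at 12% in the 250 bp before the start of alpha genes, 20.2% in beta genes, 6.67% in gamma A and B genes and 5.14% in C-type genes. In alpha and gamma genes the trough reached over the first 500 bp of the exon (17.4% and 3.85%), whereas beta genes were already at 54%. Beta exons had a second trough. It lay towards the end of the reading frame, which is 2319 to 2490 bp long, and not of the annotated exon, which is 2319 to 7131 bp long, and the WT level was back at 82.1% from 2500 to 2750 bp. From 500 to 1500 bp after the start they were at 85.7% in WT, 36.9% in *Dnmt3a* KO ESCs and 74.4% in *Dnmt3b* KO ESCs, and from 1500 to 2250 bp at 44.7%, 9.05% and 31.3%. The latter segment has 4.55 CpGs per 100 bp and the former 1.98. It was lower than the former in 21 of 22 beta genes in WT, in 21 in *Dnmt3a* KO and in 21 in *Dnmt3b* KO ESCs, with *Pcdhb1*, of 6 CpGs there, as the exception each time. In *Dnmt3a* KO ESCs it kept 20.3% of the WT level against 43.1% in the segment before it, and in *Dnmt3b* KO ESCs 70.1% against 86.9%. These segments were not planned beforehand, and their borders follow the bins of the same CpGs. The counts of genes therefore describe the trough and do not test it. Without CpGs in recurring stretches the former segment was at 87.4%, 39% and 77% over 340 CpGs and the latter at 48.6%, 11.2% and 33.9% over the 202 left of 750, and the latter was lower in 20 of the 21 genes with at least 3 CpGs in both. Alpha exons had a second trough of this kind as a mean, at 46.7% in WT from 1250 to 1500 bp and 33.9% from 1500 to 1750 bp. The last segment was lower in WT in 5 of 8 alpha genes and 1 of 6 gamma A and B genes. As the alpha trough crosses the border at 1500 bp, the alpha count cannot show how many genes share it.

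**Figure D4:**
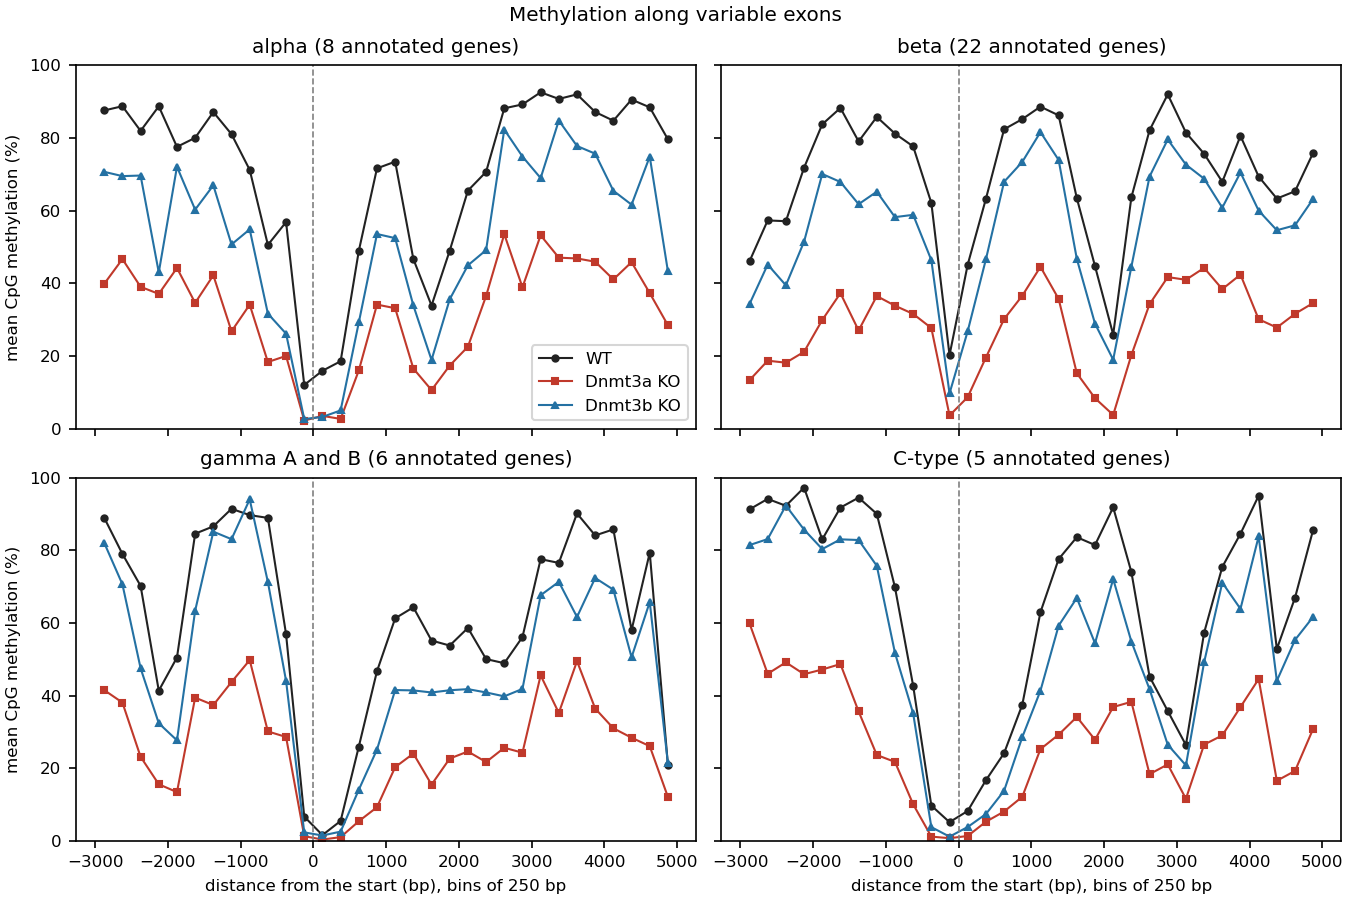
Mean CpG methylation (%) in bins of 250 bp by distance from the start (dashed line) for alpha, beta, gamma A and B, and C-type genes in WT (black), *Dnmt3a* KO (red) and *Dnmt3b* KO ESCs (blue); each point pools the CpGs of the annotated genes of that class. Beta genes show a second trough, at 25.9% in WT from 2000 to 2250 bp, and at the alpha start the blue line lies on the red one.

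The beta promoters share the letters GGCGCT, which hold the CGCT core of the conserved element of protocadherin promoters, where CTCF is known to bind. Searched on both strands in the 300 bp before the start, it was present in 20 of 22 beta promoters (90.9%), all but *Pcdhb1* and *Pcdhb13*. Of the 14254 protein-coding promoters outside the arrays 17.1% held it. So did 1 of 8 alpha, 2 of 6 gamma A and B and 3 of 5 C-type promoters, and 2 of the 17 placed by open reading frame (11.8%). In beta genes it lay between 27 and 235 bp before the start, with a median of 63 bp. The start is the start codon in all 8 alpha genes, in the 17 placed genes and in some beta and C-type genes, so that the windows are unlike. A match is a description of the letters and not of binding. The 18 CpGs inside the beta matches with at least 3 reads were at 1.67% in WT, 0% in *Dnmt3a* KO ESCs and 1.1% in *Dnmt3b* KO ESCs. In WT 14 of the 18 had no methylated read, over 455 reads in all. The other 73 CpGs of the windows with a match were at 26.6%, 8.38% and 16.5%. They come from all 20 beta promoters with a match, including *Pcdhb9* and *Pcdhb10*, which have no measured motif CpG. They also come from the whole 300 bp, so that they differ from the motif CpGs in position. Beta genes were at 20.2% in WT in the 250 bp before the start and at 62.1% from 500 to 250 bp before it. Of the 18 motif CpGs 4 had methylated reads in WT, from 3.85% at *Pcdhb6* to 10.3% at *Pcdhb4*. A different 2 had methylated reads in *Dnmt3b* KO ESCs, at 14.3% in *Pcdhb16* and 5.56% in *Pcdhb21*, and both were at 0% in WT. Outside the beta genes, the motif CpG of *Pcdhgc5* was at 37.5% in WT and at 0% in both KOs. These genes were named after their values were seen.

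**Figure D5:**
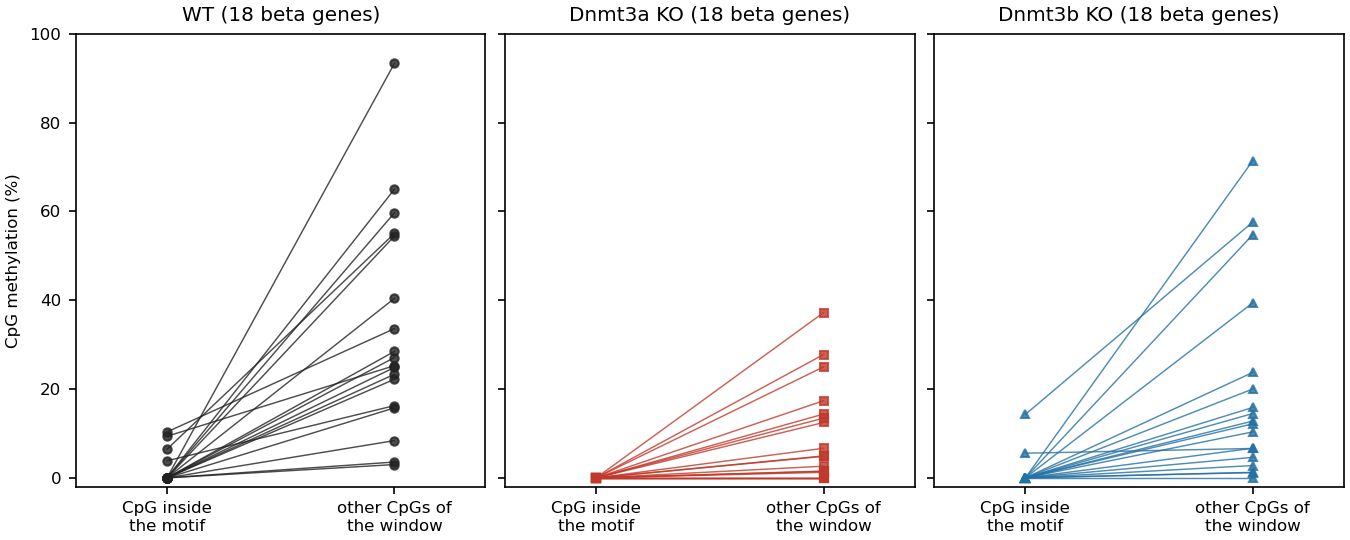
Methylation (%) of the CpG inside the motif (left of each panel) and mean of the other CpGs of the same 300-bp window (right) for the 18 beta genes with a covered motif CpG, in WT ESCs and in the *Dnmt3a* and *Dnmt3b* KOs; each line is 1 gene. The motif CpGs reach at most 10.3% in WT, with a mean of 1.67%, and 14.3% in *Dnmt3b* KO ESCs. The motif CpGs and the other CpGs differ in position in the window.

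Between the exons of an array, outside all exons, open reading frames and promoter windows, methylation was high. Its mean was 84.7% in WT, 48.6% in *Dnmt3a* KO ESCs and 72.9% in *Dnmt3b* KO ESCs over 2483 CpGs, and 52 intervals with at least 5 CpGs ranged from 62% to 94.5% in WT. Alpha, beta and gamma intervals were alike in WT, with medians of 83.8%, 82.4% and 84.8%. Of the windows of 1 kb that lie wholly between exons, 225 of 261 (86.2%) were lower than WT by more than 20 points in *Dnmt3a* KO ESCs, where 86% of all windows compared were. In *Dnmt3b* KO ESCs it was 56 of 261 (21.5%), where 7.26% of all windows were. The sequence between *Pcdha7* and *Pcdha8*, noticed after its values were seen, was at 93.8%, 78.6% and 91.2% over 299 CpGs. By the mean over CpGs it kept 83.9% of WT in *Dnmt3a* KO ESCs, the most of the intervals, beside 83.5% between *Pcdhgb4* and *Pcdhga8* over 8 CpGs. The rank depends on the measure, since the read share differed from WT by -15.3 points in the former and -9.26 points in the latter.

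Single CpGs were called hypomethylated when the 95% credible interval of the difference lay beyond 0.2. Over promoters, first exons and the sequence between exons, 2026 of 6582 CpGs (30.8%) were hypomethylated in *Dnmt3a* KO ESCs, against 25.6% of all CpGs tested, and 445 of 6577 (6.77%) in *Dnmt3b* KO ESCs, against 2.14%. By region the shares were 15%, 33.1% and 30.2% in *Dnmt3a* KO and 5.8%, 8.02% and 5.06% in *Dnmt3b* KO ESCs. Promoters and first exons of beta genes had the highest share in *Dnmt3a* KO ESCs (40.6%) and those of alpha genes in *Dnmt3b* KO ESCs (10.2%). Hypermethylated were 0 CpGs in *Dnmt3a* KO ESCs, against 0.00703% of all, and 8 in *Dnmt3b* KO ESCs (0.122%), against 0.069%.

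The 17 genes placed by open reading frame, anchored at their start codon, comprised *Pcdha5* to *Pcdha8* and 13 gamma A and B genes. The 13 gamma genes were higher in WT than the 6 annotated gamma A and B genes, with promoters at 17.5% in WT, 3.03% in *Dnmt3a* KO ESCs and 8.56% in *Dnmt3b* KO ESCs and first exons at 53.6%, 17.4% and 39.2%. Of these promoters 17.3% and 48.8% of the WT level were kept, against 35.8% and 64.4% in the annotated genes, whose first exons were at 38.8% in WT. The annotated 6 were anchored at starts that lie before their start codons, so the windows of both sets are unlike. In the annotated 6 the WT level rose from 1.58% in the first 250 bp after the start to 25.9% from 500 to 750 bp. From 500 to 250 bp before the start it was 56.9%, over 16 of their 200 promoter CpGs. Whether the anchor accounts for the difference between the sets was not tested. *Pcdha6*, *Pcdha7* and *Pcdha8* are neighbours in the alpha array and were chosen after their values were seen. Their first exons were at 82%, 76.2% and 81.1% in WT and kept 63.5%, 52.3% and 66.1% of this in *Dnmt3a* KO ESCs, more than any of the 8 annotated alpha genes (21.4% to 44.2%). The promoter window of *Pcdha8* was at 80.1% ± 21.5 (SD over 42 CpGs) in WT, 55.2% ± 26.1 in *Dnmt3a* KO ESCs and 62.3% ± 33.1 in *Dnmt3b* KO ESCs, the highest of all 58 in WT, and without recurring stretches at 95%, 68.1% and 83.3% over 18 CpGs. These names rest on distance along the array.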

How the data were processed

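Alignment by the authors was to mm9 (BSMAP); they trimmed end-repair bases and discarded clonal reads and mate overlaps (BSeQC), and counted all and methylated reads per CpG with mCall of MOABS; replicates were merged. The deposited tables give read counts, without normalization, and the methylation ratio, a fraction; levels are printed as percentages. As the WT table stops within chromosome 4, 13 whole chromosomes and part of chromosome 4 were compared. Members and lists were chosen with earlier results of these data known.

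A CpG needed at least 3 reads in each of the genotypes, and a feature at least 5 such CpGs. Exons came from GENCODE for mm9. Names of alpha and gamma exons, which it joins under shared gene symbols, were set by their distance from *Pcdhb1* in RefSeq (GRCm38.p6); 18 of 22 beta genes had the same distance in both to the base, the others within 199 bp. The annotated start was the start codon in 13 members, among them all 8 alpha genes. For other genes the longest coding exon of the longest isoform stood for the first exon. Named genes were the C-type genes and, per array, the members with the highest and lowest WT level and with the largest and smallest difference in each KO. Intervals are 95% Wilson or Newcombe intervals of read shares; they cover counting error only, and are too narrow where CpGs share reads. CpG calls used Beta posteriors and were tested on simulated data. Python 3.11.15, NumPy 2.4.6, SciPy 1.17.1 and Matplotlib 3.10.9 were used. No sequence of the locus is printed here.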

Additional observations from a re-analysis of the deposited data

How the results depend on the processing

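No paired analysis was possible because each table merges its 3 libraries, and no replicate could be left out for the same reason. Of 76 values under alternatives 53 stayed within 1.5 times the count or within the counting interval, and the cause was not tested for the others. Counts have no direction. Only the mean differences could change direction, and 0 did. In *Dnmt3b* KO ESCs the promoters lower than WT were 7, and 12 by the share of methylated reads, 22 at 10 points, 2 at 30 points and 4 with the upstream 500 bp only; the first exons were 3, and 6 by read share, 34 at 10 points, 0 at 30 points and 7 without the first 500 bp. In *Dnmt3a* KO ESCs the upstream window gave 9 promoters of the 32 with at least 5 CpGs, in place of 22 of 41. At 30 points 2 promoters and 7 first exons were higher in *Dnmt3b* KO than in *Dnmt3a* KO ESCs. Hypomethylated CpGs in *Dnmt3b* KO ESCs were 904 at a credible difference of 0.1 and 223 at the 99% level. All counts under alternatives are of the locus alone. The shares over all genes or CpGs were not computed at these settings, so these counts cannot be set against a background. The promoter difference of -17.2 points in *Dnmt3a* KO ESCs was -18.4 with at least 10 reads, -18.9 by read share, -15.1 upstream and -18 at the start codon, and that of first exons (-33.4) was -34.1 with at least 10 reads and -34.5 by read share. In *Dnmt3b* KO ESCs promoters gave -11.2 with at least 10 reads, -11.7 by read share and -9.74 upstream, and first exons -14.8 by read share. The fraction of WT kept, the range from 30% to 70%, the segments along the exons, the removal of recurring stretches and the use of all 58 genes were chosen after seeing the data.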

Other observations

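The constant exons were measured apart from the variable ones. Those of the alpha array, which code for the shared cytoplasmic end, were at 94.7% in WT, 49.8% in *Dnmt3a* KO ESCs and 82.6% in *Dnmt3b* KO ESCs over 39 CpGs, whereas those of the gamma array were at 32.2%, 6.84% and 24.7% over 44 CpGs.

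Genes around and outside the arrays were measured in the same way. Of 9 neighbouring genes, *Slc25a2*, a mitochondrial carrier gene, was the only one with a promoter lower by more than 20 points in both KOs, at 83.1% in WT, 15.6% in *Dnmt3a* KO ESCs and 52.7% in *Dnmt3b* KO ESCs. The other 8 promoters were under 10% in WT, as were 55.4% of all promoters. Of 12 non-clustered protocadherins 9 were measured. Promoters of 3 (*Pcdh9*, *Pcdh12* and *Pcdh15*) were lower by more than 20 points in *Dnmt3a* KO ESCs, where 34.4% of all promoters were. In *Dnmt3b* KO ESCs 0 were, against 3.61% of all, and 5 were under 10% in WT, against 55.4% of all. With 9 genes these counts do not stand apart from the background. *Pcdh20* was at 33.4%, 16% and 28.6%. Of 11 genes listed as regulators of the arrays 8 were measured, *Ctcf* not among them. All 8 promoters were under 10% in WT as the mean over CpGs, against 55.4% of all promoters. By the share of methylated reads, however, that of *Wiz* was at 24.7%, with 3.9% in *Dnmt3a* KO ESCs and 14.7% in *Dnmt3b* KO ESCs.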
